A study of Mus musculus with 6 samples.

Results

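A set of 10 genes of fatty acid synthesis, storage and oxidation was examined in RENCA cells with and without forced expression of the water channel AQP1. Earlier results of these data were known when the genes were chosen by symbol, without a threshold on any measured value. The genes are 10 of the 78298 in the deposited table. They are Srebf1, Acly, Acaca, Fasn, Scd1, Scd2 and Elovl6 for synthesis, Plin2 for storage, and Cpt1a and Acadm for oxidation.

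RENCA cells are an established line from a mouse renal adenocarcinoma. The oe-AQP1 cells carried a lentiviral vector with the mouse Aqp1 coding sequence, and the oe-NC cells carried the same vector without the insert. Both groups were transduced for 48 hours, puromycin selection (2 μg/mL) lasted 14 days, and each group was sequenced as 3 samples, all labelled as batch 1. Both groups therefore share the viral backbone and the drug selection, and untransduced cells were not analysed here. The samples are called biological replicates, but the sources used here do not say whether each came from its own transduction, so the p-values measure only the spread between these samples. In bulk RNA, fewer cells of a kind and less RNA per cell cannot be told apart.

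Cells build fatty acids from citrate. ATP citrate lyase (Acly) splits citrate to acetyl-CoA, acetyl-CoA carboxylase (Acaca) makes malonyl-CoA from it, and fatty acid synthase (Fasn) assembles palmitate. Elongases such as Elovl6 lengthen palmitate, and the stearoyl-CoA desaturases Scd1 and Scd2 introduce a double bond to give monounsaturated fatty acids. The transcription factor encoded by Srebf1 drives many of these genes. Perilipin 2 (Plin2) coats the lipid droplets in which neutral lipid is kept, and clear cell renal carcinoma is known for such droplets. Carnitine palmitoyltransferase 1a (Cpt1a) admits long-chain fatty acids to mitochondria, a step that malonyl-CoA inhibits. Medium-chain acyl-CoA dehydrogenase (Acadm) catalyses the first reaction of a round of oxidation for chains of medium length.

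The labels were checked on Aqp1 itself. Its expected count was between 7713 and 8545 with the insert and between 25 and 45 with the empty vector, a log2 fold change of 7.70 (SE 0.16, adjusted p = 1.34e-10 by limma-voom). Totals ran from 18385714.02 to 21920898.67 expected counts per sample. One control library stood apart from the rest. oe-NC replicate 1 differed from the other oe-NC samples with a chi-square per gene of 9.47 and 11.1, against 2.00 between those other samples and 1.71 to 2.04 within oe-AQP1. The second principal component, with 9.58% of the variance, set it at 20.3 and the other oe-NC samples at -10.8 and -10.6. For the genes of the set, results that rest on this library are given with and without it. Of the renal and epithelial markers, Pax8, Krt8, Krt18 and Cdh16 were present, whereas Epcam was at 0 in every sample and Slc34a1 had at most 1 count.

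Promoters are shown for 2 genes that were lower in oe-AQP1, Fasn and Acly, and for Plin2, which was higher. RefSeq windows of the GRCm38.p6 build, from 250 bases before to 50 bases after the annotated start, were found for 8 of the 10 genes, and Scd1 and Scd2 had none. Each sequence is written in the direction of transcription, and all 3 genes lie on the minus strand, with Fasn at chr11:120824498-120824797, Acly at chr11:100527951-100528250 and Plin2 at chr4:86670010-86670309. Capitals mark matches, on either strand, to a CCAAT box (CCAAT), a GC box (GGGCGG) or an E-box (CACGTG).
Fasn: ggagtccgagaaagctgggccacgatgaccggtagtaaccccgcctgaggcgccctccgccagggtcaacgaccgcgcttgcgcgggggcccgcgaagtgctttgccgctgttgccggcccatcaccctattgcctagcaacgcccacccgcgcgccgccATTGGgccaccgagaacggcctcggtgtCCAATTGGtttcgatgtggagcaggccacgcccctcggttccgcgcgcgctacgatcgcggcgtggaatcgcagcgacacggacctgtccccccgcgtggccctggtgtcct
Acly: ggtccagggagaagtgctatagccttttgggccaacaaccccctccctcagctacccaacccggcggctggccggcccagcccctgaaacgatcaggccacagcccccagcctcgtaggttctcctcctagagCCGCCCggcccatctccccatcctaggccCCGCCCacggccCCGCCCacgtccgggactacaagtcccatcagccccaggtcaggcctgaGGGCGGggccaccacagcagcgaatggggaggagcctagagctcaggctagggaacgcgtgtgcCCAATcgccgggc
Plin2: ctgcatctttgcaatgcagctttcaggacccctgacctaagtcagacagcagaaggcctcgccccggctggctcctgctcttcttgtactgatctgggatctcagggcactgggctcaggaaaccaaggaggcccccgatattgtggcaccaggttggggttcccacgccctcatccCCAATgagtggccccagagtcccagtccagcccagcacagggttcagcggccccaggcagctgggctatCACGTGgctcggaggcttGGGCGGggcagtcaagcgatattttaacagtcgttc
The Fasn window held 3 CCAAT matches, which began at -90, -62 and -59 from the start, the last pair overlapping. The Acly window held 4 GGGCGG matches at -117, -88, -76 and -27 and a CCAAT match at 38. In the Plin2 window, CCAAT began at -73, CACGTG at -4 and GGGCGG at 15.

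CCAAT was found in 5 of the 8 genes with a window (Srebf1, Acly, Fasn, Plin2 and Cpt1a) and in 37.4% of all 32851 promoters of the same length. A gene counted if any of its windows matched, and the 8 genes had 10 windows, 3 of them for Srebf1. The shares over all promoters count single windows, so the measures differ in unit. GGGCGG was found in 4 of 8 and in 35.7% of all promoters. The E-box CACGTG was present in Plin2 alone among the 8, and in 7.15% of all promoters. The letters ACGTG, the E-box without its first letter, were searched as the core of a hypoxia response element. They occurred in Acly, Elovl6 and Plin2, and in 19.6% of all promoters. A sterol regulatory element written as TCACNCCAC had no match in the 8 genes and 1.24% of all promoters matched. The PPAR response element (a direct repeat spaced by 1 base) had no match in the 8 genes and 0.0396% of all promoters matched. The LXR response element (the same repeat spaced by 4 bases, 0.0152% of all promoters) and the interferon-stimulated response element (3.44%) had none either. These are matches of letters only. Sites outside the windows were not searched, and a window need not hold the main promoter of its gene.

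Of the 10 genes, 9 had enough reads to be tested. In oe-AQP1, 6 of them were lower (Acly, Acaca, Fasn, Scd1, Scd2 and Acadm), 1 was higher (Plin2), and 2 did not pass the test (Srebf1 and Cpt1a). The call was an adjusted p under 0.05 alone (Benjamini-Hochberg over 15522 genes, limma-voom), without a threshold on the fold change. Over all genes tested, 32.5% were called, 16.6% as lower and 16.0% as higher. Well-counted genes were called more often: among the 5107 tested genes with a mean of at least 50 CPM (counts scaled to the library size after TMM adjustment), 45.8% were called and 28.3% were called lower, and all 9 tested genes of the set are in that class. By limma-voom, edgeR and DESeq2 alike, none of the 9 reached an absolute log2 fold change above 1 along with the adjusted p, nor with an unadjusted p under 0.05 in limma-voom, against 5.23% of all genes tested. Their median log2 fold change was -0.26, beside 0 over all genes tested and -0.037 over the well-counted ones. Without oe-NC replicate 1, 6 genes were lower and 2 were higher, since Srebf1 was then called.

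**Figure D1:**
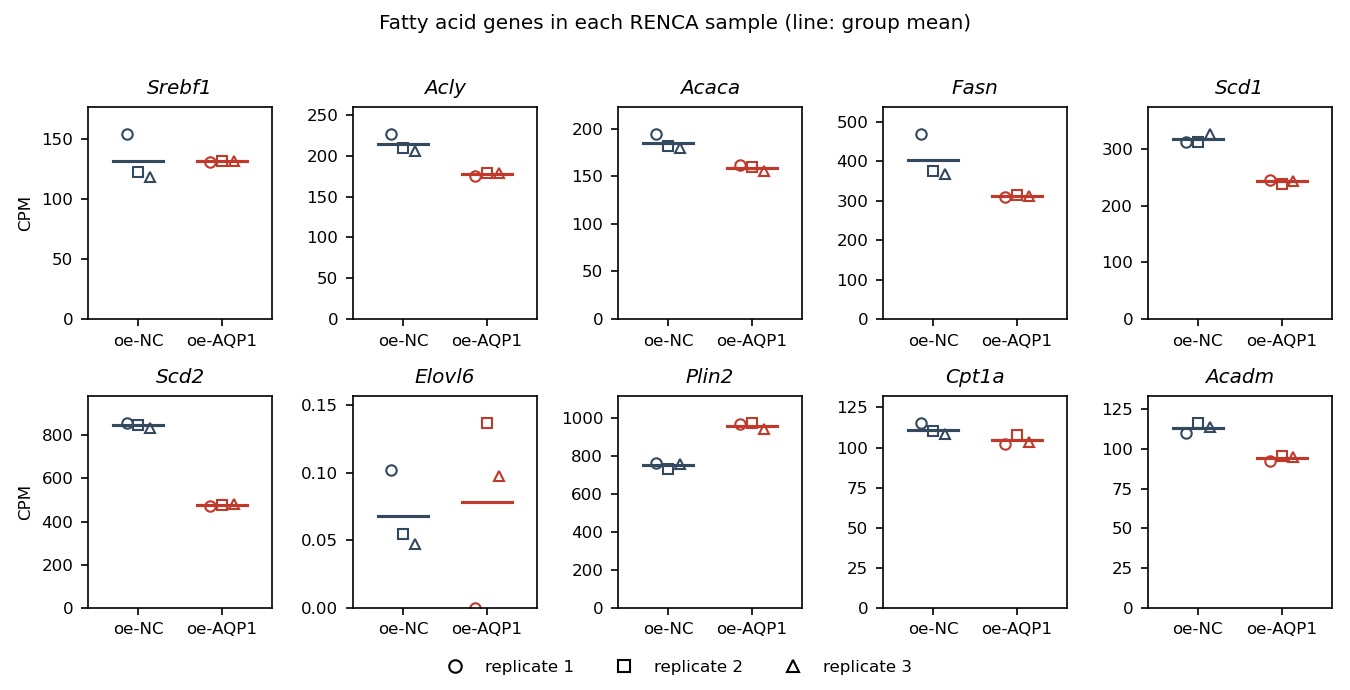
CPM (vertical axes, each starting at 0 with its own scale) of the 10 genes in the 3 oe-NC and 3 oe-AQP1 samples; symbols mark the replicate number and lines the group means. Scd2 lay at 833.6 to 855.5 in oe-NC and 473.2 to 480.4 in oe-AQP1, Plin2 was higher in every oe-AQP1 sample, and oe-NC replicate 1 was the highest sample for Srebf1 and Fasn.

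Srebf1, the regulator of the set, did not pass the test with all samples. The oe-AQP1 samples were at 131, 132.2 and 132.1 CPM, and the oe-NC samples at 154.1, 123 and 118.3. The groups overlapped because oe-NC replicate 1 lay above every oe-AQP1 sample and the other oe-NC samples below. Both means came to 131.8 CPM, with an SD of 0.642 in oe-AQP1 and 19.4 in oe-NC (n = 3 each). The log2 fold change was 0.01 (95% interval -0.17 to 0.20, adjusted p = 0.938 by limma-voom). When oe-NC replicate 1 was left out it was 0.13 (SE 0.03, adjusted p = 0.00171, limma-voom), a call of higher. Without oe-NC replicate 2 or 3 it was -0.03 or -0.07. The direction for Srebf1 thus turned on single control libraries.

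Acly, the first enzyme of the route, was at 175.7, 178.9 and 179.5 CPM in oe-AQP1 and at 226.2, 209.6 and 206.1 in oe-NC. Every oe-AQP1 sample was below every oe-NC sample. The mean was 178 ± 2.01 against 214 ± 10.7 CPM (SD, n = 3), and the log2 fold change of -0.26 (SE 0.04) passed the test (adjusted p = 0.00109, limma-voom).

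Acaca, which makes the malonyl-CoA used for chain growth, was at 161.5, 160.3 and 155.9 CPM in oe-AQP1 and 194.2, 182 and 179.5 in oe-NC. The groups did not overlap. Acaca fell by 0.22 on the log2 scale (SE 0.04, adjusted p = 0.00295, limma-voom), the smallest change of the 6 genes called lower. The log2 fold changes of Acly and Acaca were -0.22 and -0.18 without oe-NC replicate 1.

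Fasn was at 309.5, 315.2 and 312.4 CPM in oe-AQP1 and at 467.6, 375 and 368.3 in oe-NC. The oe-AQP1 samples lay within a narrow range below all controls, and among the controls replicate 1 stood above the others. The means were 312.4 ± 2.86 and 403.6 ± 55.5 CPM (SD, n = 3). Fasn fell by 0.36 on the log2 scale (SE 0.08, adjusted p = 0.00561, limma-voom). Without oe-NC replicate 1 the log2 fold change was -0.25 (adjusted p = 7.39e-09, limma-voom), so the gene was called lower either way and the size depended on that library.

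**Figure D2:**
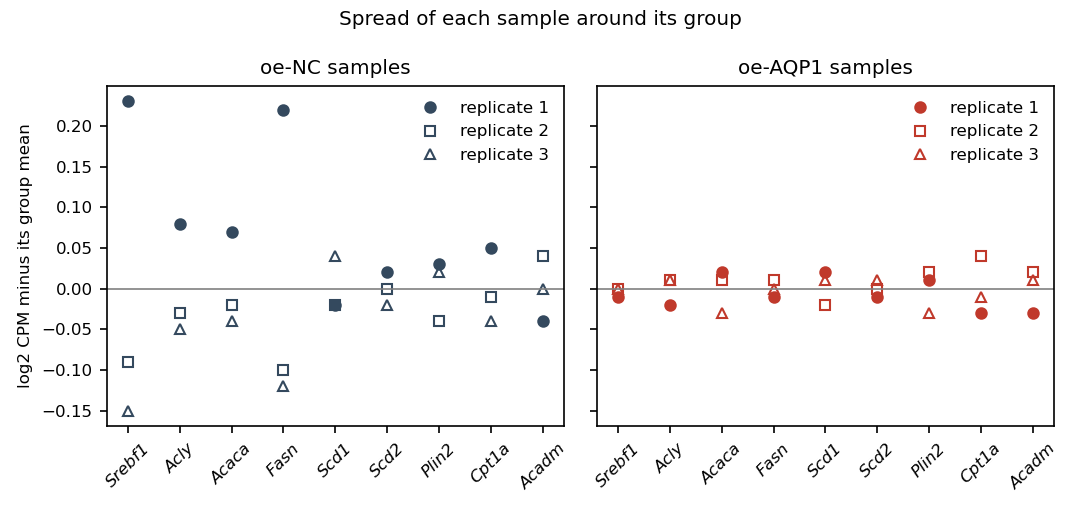
Deviation of each sample from its group mean in log2 CPM (vertical axis) for the 9 tested genes, with oe-NC samples on the left and oe-AQP1 samples on the right; filled circles are replicate 1. oe-NC replicate 1 deviated by 0.23 for Srebf1 and 0.22 for Fasn, by 0.08 for Acly and 0.07 for Acaca, and by -0.02 and 0.02 for Scd1 and Scd2.

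Both desaturases were lower in oe-AQP1. Scd1 was at 246.2, 238.9 and 244.3 CPM in oe-AQP1 and 312.7, 312.1 and 325.9 in oe-NC. The groups were far apart relative to their spread, and the log2 fold change was -0.38 (SE 0.04, adjusted p = 2.23e-05, limma-voom). Differences in fold change between the genes were not tested except for the desaturase pair.

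Scd2 was the gene of the set with the largest change. It was at 473.2, 477.9 and 480.4 CPM in oe-AQP1 and at 855.5, 847.8 and 833.6 in oe-NC. The lowest control exceeded the highest oe-AQP1 sample by far more than the range within either group. The means were 477.2 ± 3.68 and 845.7 ± 11.1 CPM (SD, n = 3), which is 1.77-fold lower in oe-AQP1 (log2 fold change -0.83, SE 0.03, adjusted p = 1.22e-08, limma-voom). Of all genes tested, 1.89% had a lower log2 fold change. Without oe-NC replicate 1, the values were -0.39 for Scd1 and -0.82 for Scd2.

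The ratio of Scd2 to Scd1 counts within a sample needs no scaling between samples. It was 1.92, 2 and 1.97 in oe-AQP1 and 2.74, 2.72 and 2.56 in oe-NC. All oe-AQP1 ratios were below all oe-NC ratios, and the mean log2 ratio was lower by 0.44 in oe-AQP1 (difference -0.44, two-sided exact permutation p = 0.1, which is the smallest p that 3 samples against 3 allow). Leaving out any sample gave -0.47 to -0.43. The 2 genes are close paralogs in the same region of chr19 (GRCm39), Scd2 at 44281613-44295303 and Scd1 at 44382894-44399154. Scd4 lies between them, at 44321531-44336783. Scd1 and Scd2 both carried fractional expected counts, which can arise where a counter divides reads between genes. The split of reads between Scd1 and Scd2 is therefore uncertain. The neighbouring desaturases Scd3 and Scd4 had at most 3 and 2 counts.

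Elovl6, the elongase that takes palmitate to stearate, was nearly absent. The oe-AQP1 samples had 0, 3 and 2 counts and the controls 2, 1 and 1, which is 9 in all. A count of 0 at this depth allows up to 0.152 CPM in that sample (3 counts, counting error only), and a difference between the groups was not detectable. Other elongases of the list were present. Elovl1, which acts on longer saturated chains, had 88.43 ± 2.79 CPM in oe-AQP1 and 98.03 ± 4.24 in oe-NC (SD, n = 3) and was called lower. Elovl5, which elongates polyunsaturated chains, had 63.06 ± 0.997 and 68.83 ± 3.14 CPM and did not pass the test (adjusted p = 0.0715, limma-voom). These 2 elongases were picked after their values had been seen.

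With all 6 samples, Plin2 was the single gene of the set that rose. It was at 970.3, 973.5 and 941.5 CPM in oe-AQP1 and at 766.6, 732.2 and 761.4 in oe-NC. The groups did not overlap, and oe-NC replicate 1 lay with its group. The means were 961.8 ± 17.6 and 753.4 ± 18.5 CPM (SD, n = 3), 1.28-fold higher in oe-AQP1 (log2 fold change 0.35, SE 0.03, adjusted p = 2.01e-05, limma-voom). The log2 fold change was 0.36 without oe-NC replicate 1.

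The 2 oxidation genes differed in their calls. Cpt1a was at 102.5, 108 and 103.6 CPM in oe-AQP1 and at 115.1, 110 and 108.3 in oe-NC. The highest oe-AQP1 sample and the lowest control were almost level. The log2 fold change was -0.09 (95% interval -0.18 to 0.01, adjusted p = 0.158 by limma-voom), so a fall of the size seen for Acly was outside the interval. Cpt1a also carried fractional counts, as did Acaca.

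Acadm was at 92.45, 95.91 and 94.74 CPM in oe-AQP1 and at 110.3, 116.2 and 113.6 in oe-NC. The groups did not overlap. Acadm fell by 0.26 on the log2 scale (SE 0.04, adjusted p = 0.000751, limma-voom), and by 0.28 without oe-NC replicate 1. A direct test between Cpt1a and Acadm was not made. Of the 9 tested genes, 7 lay lower and 1 higher without overlap in CPM, beside 23.8% and 23.5% of all genes tested, or 47.3% in either direction. These shares were not computed for the well-counted genes, the class that holds all 9 and is called more often.

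**Figure D3:**
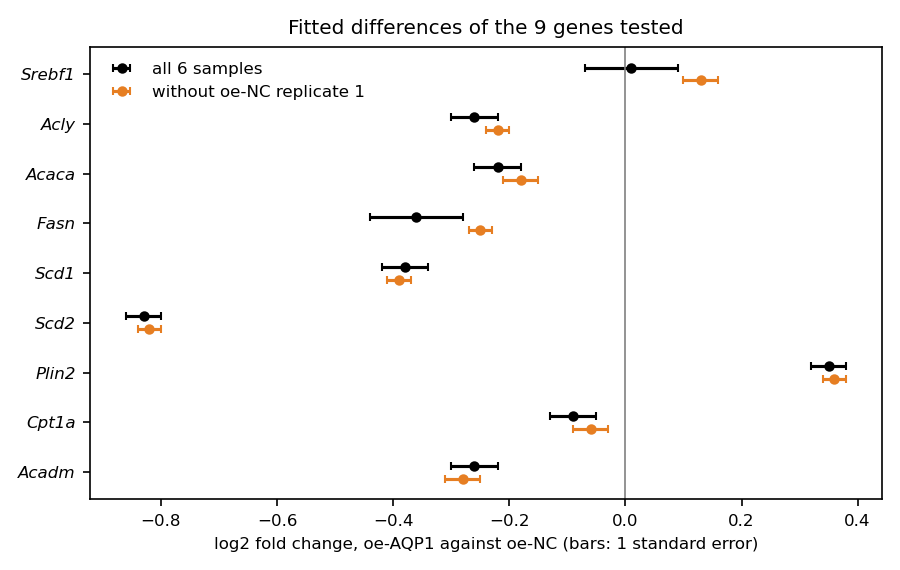
Fitted log2 difference between oe-AQP1 and oe-NC (horizontal axis, negative where oe-AQP1 is lower) for the 9 tested genes, with bars of 1 standard error, from all 6 samples (black) and without oe-NC replicate 1 (orange). Scd2 lay at -0.83 and -0.82 and Plin2 at 0.35 and 0.36, whereas Srebf1 moved from 0.01 to 0.13 and Fasn from -0.36 to -0.25.

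Levels of different genes were compared per length, as TPM, scaled to the same total in each sample. TPM was computed from the counts and the merged exon lengths of each gene. Merged exons cover all annotated transcripts (7684 bases for Plin2, 7527 for Scd2) and can be longer than the transcripts that cells make. The order of the genes therefore holds for these lengths only. In oe-NC the order began with Scd2 at 435.8 ± 16.8 TPM and Plin2 at 380.3 ± 16.8 (SD, n = 3). Scd1 followed at 170.5, then Fasn at 134.1, Srebf1 at 86.92, Acadm at 69.73 and Acly at 56.98. Cpt1a and Acaca, at 39.43 ± 2.32 and 39.08 ± 2.72 TPM, did not differ beyond their spread, and Elovl6 was last at 0.0312. In oe-AQP1 Plin2 came first at 504 ± 8.08 TPM and Scd2 second at 255.3 ± 3.12, and the other 8 kept their places. The TPM ratio of Plin2 to Scd2 was 0.873 ± 0.0248 in oe-NC and 1.97 ± 0.048 in oe-AQP1 (SD, n = 3).

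**Figure D4:**
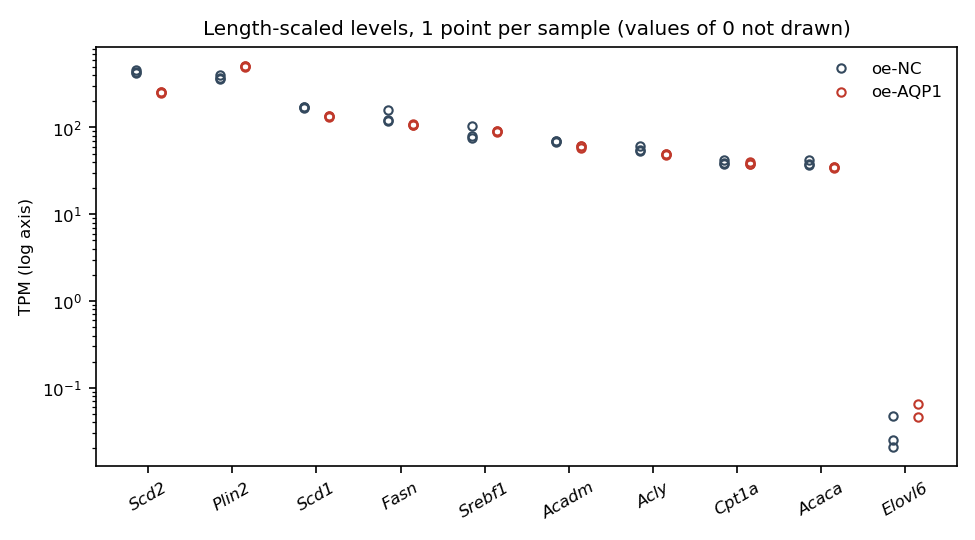
TPM on a log axis for each gene, ordered by its mean in oe-NC, with 1 point per sample (oe-NC dark, oe-AQP1 red; a value of 0 for Elovl6 is not drawn). With merged exon lengths, Plin2 and Scd2 change places between the groups, and Elovl6 lies far below the other 9 genes.

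Of the set, 4 genes (Srebf1, Acly, Acaca and Fasn) lie on chr11, where the median log2 fold change of all 1268 tested genes was 0. Scd1, Scd2 and Cpt1a lie on chr19, with a median of -0.02 over 559 genes. Tested genes within 1 Mb had medians of 0 around Fasn (61 genes), -0.05 around Acly (55 genes), 0.06 around Scd2 (33 genes) and 0.04 around Plin2 (4 genes). The medians were 0.11 around Acaca (30 genes), 0.06 around Scd1 (34 genes) and 0.08 around Acadm (3 genes). For the genes that were not called, the neighbours had a median of 0.02 beside 0.01 for Srebf1 itself, and of -0.08 beside -0.09 for Cpt1a.

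The other genes of the pathway were described from 7 lists of 170 genes, of which 133 were tested. These lists were also chosen with earlier results of these data known. In oe-AQP1, 55 were called lower and 20 higher (41.4% and 15% of the genes tested), with a median log2 fold change of -0.13. Over all genes tested 16.6% were lower and 16.0% higher, and among the well-counted ones 28.3% and 17.5%, which are the shares to read each list against. Without oe-NC replicate 1, the counts were 65 and 26. By list, the median was lower than 0 in 6 lists and higher than 0 for the PPAR and LXR target genes.

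Of 20 tested lipogenic regulators, 11 were lower and 3 higher (median log2 fold change -0.22), so that 70.0% were called. The count lower was 6 without oe-AQP1 replicate 3 and 7 without oe-AQP1 replicate 2, and the count higher was 1 without oe-AQP1 replicate 1. Srebf2, the partner factor of Srebf1 that chiefly drives cholesterol synthesis, had the highest CPM of the list. It fell from 570.4 ± 55.1 to 469.5 ± 0.61 CPM (SD, n = 3, log2 fold change -0.28). Nr1h3, which encodes the sterol receptor LXRα, fell by 0.44, Cebpa, an adipogenic factor, by 0.40 and Mlxipl, the glucose-responsive factor ChREBP, by 0.38 on the log2 scale. Leaving out 1 sample gave log2 fold changes of -0.32 to -0.2 for Srebf2 and -0.51 to -0.25 for Cebpa. Thrsp, a lipogenic nuclear protein, rose by 0.72, from 6.046 to 9.916 CPM. Usf1, an E-box binding factor, rose by 0.25 and Prkaa1, a catalytic subunit of the kinase AMPK, by 0.16. The calls for Usf1, Prkaa1, Cebpa and Mlxipl were lost when some single samples were left out, with adjusted p-values by limma-voom up to 0.0627, 0.1, 0.0995 and 0.057, and Prkaa1 also missed the threshold with DESeq2 (adjusted p = 0.0561).

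Among 21 tested synthesis enzymes, 8 were lower (38.1%) and none was higher by limma-voom (median -0.13). Of all genes tested, 16.6% were lower and 16.0% higher, and of the well-counted ones 28.3% and 17.5%. In either direction together, the 38.1% called lay near the 32.5% of all genes tested and under the 45.8% of the well-counted ones. At an unadjusted p under 0.05, 1 enzyme of the list was higher and 11 lower, and neither edgeR nor DESeq2 called any higher. With oe-NC replicate 1 left out, 12 were called lower and 2 higher. Hacd4 and Hacd1, dehydratases of the elongation cycle, fell by 0.52 and 0.48 on the log2 scale. The desaturase gene Fads3 fell by 0.32. Fads2, which introduces double bonds into polyunsaturated chains and had the highest CPM of the list, fell by 0.21, from 329.3 ± 18.1 to 283.8 ± 4.37 CPM (SD, n = 3).

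Of the uptake and activation list, 11 of 23 genes were tested, 6 were lower and none was higher by limma-voom (median -0.23), a share called of 54.5%. At an unadjusted p under 0.05, 0 were higher and 8 lower, and edgeR and DESeq2 called 0 higher. Vldlr, a lipoprotein receptor, fell by 0.55 on the log2 scale. Dbi, the acyl-CoA binding protein, fell by 0.54, from 150.4 ± 12.8 to 103.4 ± 1.97 CPM (SD, n = 3). Slc27a1, a fatty acid transport protein with the highest CPM of the list, was at 140.2 ± 4.71 CPM in oe-AQP1 and 139.7 ± 8.68 in oe-NC (log2 fold change 0.01, adjusted p = 0.939, limma-voom). The transporter Cd36 had at most 5 counts.

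Of 24 tested genes of triglyceride synthesis and lipid droplets, 9 were lower and 5 higher (37.5% and 20.8%, median -0.05). The median was -0.14 without oe-NC replicate 3, -0.08 without oe-NC replicate 2, and -0.01 without oe-NC replicate 1, oe-AQP1 replicate 2 or oe-AQP1 replicate 3. The count higher was 3 without oe-AQP1 replicate 1 or oe-AQP1 replicate 2. Plin4, another perilipin, fell by 0.58, from 74.85 ± 8.18 to 49.81 ± 0.265 CPM (SD, n = 3). Lpin1, a phosphatidate phosphatase, fell by 0.48 and Hilpda, a droplet protein that inhibits lipolysis, by 0.36. Agpat3, an acyltransferase with the highest CPM of the list, fell by 0.21. Agpat4 and Gpat3, acyltransferases, rose by 0.27 and 0.26 (without a low-count filter Agpat4 missed the threshold, adjusted p = 0.053 by limma-voom), and Spart, the droplet-associated protein spartin, rose by 0.27, from 198.3 to 239.1 CPM. The adipocyte perilipin Plin1 had at most 3 counts and Plin5 at most 2, so that Plin2, Plin4 and Plin3 were the perilipins measured. Plin3 was at 194.8 ± 4.91 CPM in oe-AQP1 and 207.6 ± 24.3 in oe-NC and did not pass the test (adjusted p = 0.385, limma-voom).

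All 28 genes of the mitochondrial oxidation list were tested, 13 were lower and 2 higher (46.4% and 7.14%, median -0.15). The count higher was 1 when oe-NC replicate 1, oe-NC replicate 3 or any oe-AQP1 replicate was left out. Hadh, which oxidises hydroxyacyl-CoA, fell by 0.46, from 93.18 ± 2.84 to 67.9 ± 2.69 CPM (SD, n = 3). The acyl-CoA dehydrogenases Acad10 and Acad11 fell by 0.41 and 0.35. Eci2, an enoyl-CoA isomerase, rose by 0.35, from 105.5 ± 2.6 to 134.7 ± 3.21 CPM (SD, n = 3). Slc22a5, the carnitine transporter, was called higher by 0.23, a call lost in 8 of 16 alternatives with adjusted p up to 0.165 (limma-voom without a low-count filter). The dehydrogenase Acadl, with the highest CPM of the list, did not pass the test (log2 fold change -0.06, adjusted p = 0.216, limma-voom), and was called lower without oe-NC replicate 1 (-0.09).

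Of 16 tested peroxisomal genes, 6 were lower and 3 higher (37.5% and 18.8%, median -0.14). Acox2, an oxidase of branched-chain substrates, fell by 0.69, Hsd17b4, the multifunctional enzyme of the next steps, by 0.62 and Abcd3, a peroxisomal transporter, by 0.42 on the log2 scale. Crot, which exports shortened chains as carnitine esters, rose by 0.57, the thiolase Acaa1a by 0.46 and Phyh, which acts on phytanic acid, by 0.20. Without a low-count filter Phyh missed the threshold (adjusted p = 0.0521, limma-voom).

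The PPAR and LXR target list ran the other way, with 7 of 13 tested genes higher and 2 lower (53.8% and 15.4%, median 0.15). Beside targets, the list holds the receptor genes Ppara and Ppard and the coactivator gene Ppargc1a. Ppargc1a is among the 7 called higher (log2 fold change 0.51), and Ppard is among the 13 tested. Vnn1, a pantetheinase, rose from 67 to 73 counts per oe-NC sample to 285 to 379 per oe-AQP1 sample (log2 fold change 2.18, adjusted p = 6.26e-07, limma-voom), and it was the only gene of the 7 lists with a log2 fold change above 1 and a call. Mylip, a ubiquitin ligase, rose by 0.67. Angptl4, a secreted inhibitor of lipoprotein lipase with the highest CPM of the list, rose by 0.54, from 252.6 ± 15.7 to 367.5 ± 4.6 CPM (SD, n = 3). The mitochondrial carrier Ucp2 fell by 0.21. The receptor genes Ppara and Pparg had at most 1 count in any sample. The receptor gene Ppard was expressed, at 43.38 ± 1.91 CPM in oe-AQP1 and 39.89 ± 2.59 in oe-NC (SD, n = 3). Ppard did not pass the test (log2 fold change 0.12, adjusted p = 0.156, limma-voom).

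**Figure D5:**
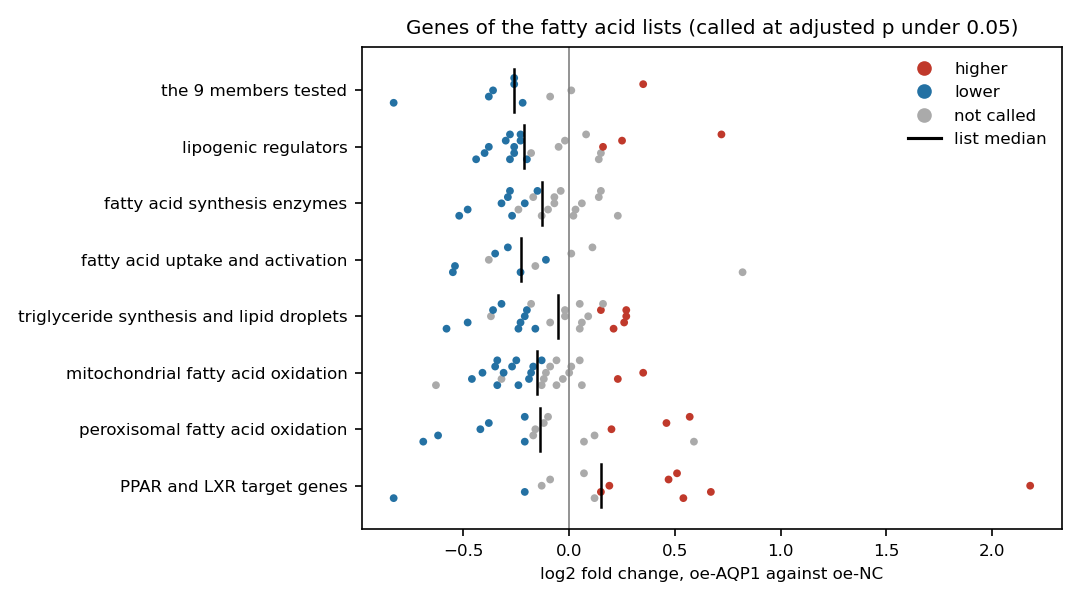
Fitted log2 difference between oe-AQP1 and oe-NC (horizontal axis, negative where oe-AQP1 is lower) for each tested gene of the set and of the 7 lists, red where called higher, blue where called lower and grey where not called; black bars are list medians. The medians of 6 lists lie between -0.23 and -0.05, the PPAR and LXR target genes lie at 0.15 with Vnn1 at 2.18, and vertical offsets within a list carry no value.

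For the tested genes of the set other than Fasn, the list gene with the nearest profile was found by Euclidean distance of centred log2 CPM over the 6 samples, among 137 genes. The nearest to Srebf1 was Acacb (distance 0.0388), the mitochondrial acetyl-CoA carboxylase, which was at 59.5 ± 1.33 CPM in oe-AQP1 and 58.98 ± 8.73 in oe-NC. Acaca was nearest to Ucp2 (0.0199), Acadm to Me1 (0.0552), Acly to Mbtps1 (0.0696), Cpt1a to Acsl5 (0.0731), Plin2 to Eci2 (0.0852) and Scd1 to Eci1 (0.093). Scd2 had the most distant neighbour, Acox2 (0.179). These distances describe 6 samples that share the same libraries.

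Markers of other cell types were measured beside these genes. The summed renal and epithelial markers were at 851 to 884 CPM in oe-AQP1, against 1040 to 1150 in oe-NC, and 5 of 9 tested were lower: Lrp2 (log2 fold change -0.93), Cdh1 (-0.86), Cdh16 (-0.63), Krt8 (-0.41) and Krt18 (-0.27). The 8 adipocyte markers summed to at most 0.546 CPM and the 6 hepatocyte markers, with Ttr at 0, to at most 0.188 CPM. The 10 macrophage markers summed to 59.1 to 62.3 CPM in oe-AQP1, against 69.3 to 71.3 in oe-NC, with Adgre1 and Tyrobp at 0. Of 4 tested, 2 were lower, Csf1r (-1.51) and Lyz2 (-0.52). Cd14 (-0.16) and Cd68 (0.15, adjusted p = 0.0764 by limma-voom) were not called, and Cd68 had the highest CPM of these markers. Beside these marker counts, 16.6% of all genes tested were called lower, and 28.3% of those with a mean of at least 50 CPM. The 8 fibroblast markers summed to 56.6 to 58.8 and 51.7 to 65.7 CPM, with Thy1 at 0, Col1a1 lower (-0.73) and Pdgfrb higher (0.34). The 6 endothelial markers summed to at most 1.73 CPM, with Kdr and Emcn at 0. The part of the marker shifts in the results for the fatty acid genes was not tested.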

How the data were processed

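Total RNA of 6 samples was sequenced by a service company for the authors as paired-end libraries made with an Illumina TruSeq kit. The deposited values are expected counts per gene, not scaled to one another, and 2 further columns of group means were not used. The submitters' processing notes name fastp, HISAT2, featureCounts and Subread, without versions, and the GRCm38 (mm10) build, whereas the methods of the study name GRCm39, so the build behind the counts is uncertain. Of 78298 identifiers, 78168 matched GENCODE M39 (GRCm39), the source of gene positions and lengths, and promoter windows came from RefSeq (GRCm38.p6).

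Counts were rounded and genes kept by filterByExpr. oe-AQP1 was compared with oe-NC by limma-voom (limma 3.58.1, edgeR 4.0.16 for TMM, R 4.3.3), the test and normalization of the study. Calls used an adjusted p under 0.05 alone, and the study's further threshold of an absolute log2 fold change above 1 is given as a separate count. Its removal of interferon-stimulated genes was not applied. CPM used TMM-scaled library sizes, with 0.5 added before logs of CPM. Genes were named by rule: all 10 genes of the set, and in each list the 3 largest called increases and decreases where the group with more reads averaged 10 counts or more, the gene of highest CPM, the nearest list gene with a mean of at least 50 counts, and defining markers at 0 or called. The rule does not cover genes named only for low or absent counts (Scd3, Scd4, Cd36, Plin1, Plin5, Ppara and Pparg). Plin3, Elovl1, Elovl5, Ppard, Ppargc1a, Cd14 and Cd68 also fall outside it, and all of these were chosen after their values were seen. Some genes that the rule names, and the nearest gene to Fasn, are not reported here. The genes and lists were chosen with earlier results of these data known. Groups came from the sample labels. Before use, the fit was run on simulated counts with known changes. Alternatives were DESeq2 1.42.0, edgeR's quasi-likelihood test, sample quality weights, 3 other scalings, other filters, unrounded counts, a replicate block, a stricter threshold and leaving out each sample.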

Additional observations from a re-analysis of the deposited data

How the results depend on the processing

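Of the 9 tested genes of the set, 8 kept their direction and call under all 16 alternatives of the fit, with 6 genes lower in each. Srebf1 had a log2 fold change of 0 with DESeq2, -0.01 without a low-count filter, -0.03 without oe-NC replicate 2 and -0.07 without oe-NC replicate 3, none called, and 0.13 without oe-NC replicate 1, where it was called and 2 genes were higher in place of 1. Leaving out 1 sample gave 1 to 2 genes higher and 6 lower. Slc27a1, at 0.06 without oe-NC replicate 1, had -0.01 without a low-count filter and without oe-AQP1 replicate 1, oe-AQP1 replicate 2 or oe-NC replicate 2, and -0.03 without oe-NC replicate 3, none called. Of the 40 other genes that the naming rule gave, 31 kept their direction and call throughout, and 7 lost the call in at least 1 alternative (Usf1, Prkaa1, Cebpa, Mlxipl, Agpat4, Slc22a5 and Phyh). At an adjusted p under 0.01, 1570 genes were higher and 1572 lower, against 2481 and 2569, and leaving out 1 sample gave 1856 to 3125 and 1745 to 3331. Calls past the fold threshold numbered 812, and 482 with at least 10 counts in every sample. The list counts ranged from 15 to 26 higher and 43 to 65 lower when 1 sample was left out. With a replicate block, 1 gene of the set was higher and 6 lower, and 2346 and 2479 of all genes. Same-numbered samples did not deviate together (r = 0, 0.02 and -0.05), so no pairing by number was seen. With so few samples per group, handling in pairs could go unseen. The paired sign-flip test of the Scd2 to Scd1 ratio gave p = 0.25, an exact p and the smallest possible for 3 pairs, with a log2 difference of -0.44. Under the replicate block, Slc22a5 was the single one of these that lost its call (adjusted p = 0.0533, limma-voom). Depth limits statements on Elovl6, Cd36 and other genes with few counts.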

Other observations

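The KEGG annotation deposited with the counts gave other groupings of these genes, which were chosen after values had been seen and share genes with the lists above. Beside them stand the 16.6% lower and 16.0% higher of all genes tested, and the 28.3% and 17.5% among genes with a mean of at least 50 CPM. Of 38 tested genes of fatty acid degradation, 20 were called lower and 3 higher (52.6% and 7.89%, median log2 fold change -0.18). Of 12 tested genes of fatty acid biosynthesis, 4 were called lower (33.3%, median -0.09). Of 24 tested genes of the biosynthesis of unsaturated fatty acids, 10 were lower and 1 was higher (41.7% and 4.17%, median -0.15). Of 42 tested genes of glycerolipid metabolism, 17 were lower and 5 higher (40.5% and 11.9%, median -0.15). The KEGG map of PPAR signaling, with 47 tested genes, had 20 lower and 3 higher (42.6% and 6.38%, median -0.11), whereas in the shorter list of PPAR and LXR target genes 7 were higher and 2 lower. The map holds 5 of the 10 genes of the set.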
